A study of Mus musculus with 6 samples.

Results

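Dystrophin and the proteins that hold it to the muscle membrane were followed through 8 of their genes, Dmd, Utrn, Sgca, Sgcb, Sgcd, Dag1, Dtna and Sspn, in mouse muscle with and without Prmt7. The genes were chosen by name, as listed members of the dystrophin-associated protein complex, and all 8 were found among the 14617 genes of the deposited table. RNA came from the tibialis anterior, a fast muscle of the lower leg, of C57BL/6 mice aged 8 months. By genotype the labels list 3 PRMT7+/+ mice (called WT) and 3 PRMT7-/- mice (called KO). Prmt7 encodes an arginine methyltransferase that acts on histones and other proteins, and the labels state neither the deleted part of the gene nor the sex of the mice.

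Dystrophin is a long rod-shaped protein that binds cytoplasmic actin at one end and the membrane protein dystroglycan at the other. Dystroglycan reaches through the membrane to laminin outside the fibre, and the sarcoglycans and sarcospan brace it within the membrane. Syntrophins and dystrobrevins attach signalling enzymes, among them neuronal nitric oxide synthase, on the inner side. Loss of dystrophin causes Duchenne muscular dystrophy, and loss of single sarcoglycans causes limb-girdle muscular dystrophies.

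The deposited table gives a mean normalized read count per genotype, and each mean could be split exactly into the whole counts of 2 libraries. Values are therefore given for WT libraries 1 and 2 and KO libraries 1 and 2, which cannot be assigned to particular mice. The labels list 3 mice per genotype, so the deposited means do not hold a separate library of every mouse. The recovered libraries held 22629288 to 24814798 counts over the listed genes. WT was read as the first column of means from the word order in the name of the table, and every direction below depends on that order. Prmt7 itself was read at 885 and 844 normalized counts in WT against 706 and 718 in KO, with an FDR of 0.587 by the authors' deposited table, and the deleted stretch cannot be read from a gene total. Muscle fibre markers were abundant in every library, with Acta1, skeletal alpha-actin, at 708866 to 884342 normalized counts. Xist, the X-inactivation RNA of female cells, was at 10800.0 and 11546 normalized counts in WT but 1.82 and 1.03 in KO, so this difference and genotype cannot be told apart for any result here. The Y-linked genes Ddx3y, Eif2s3y, Kdm5d and Uty reached 427 to 2824 normalized counts in KO library 2 and were at 0 elsewhere.

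No member of the complex differed between the genotypes past the threshold of either test. With the authors' FDR under 0.05, 0 of the 8 members were called, against 2.71% of all listed genes. At an unadjusted p under 0.05 by the authors' deposited table, Sgcd alone (1 of 8) was below the threshold, against 11.1% of all listed genes. A limma fit on log2 of the recovered counts plus 1 called 0 members at an adjusted p under 0.05, against 0.889% of the genes it tested, and its unadjusted p was under 0.05 for Sgcd alone. The deposited log2 ratios, KO over WT, ran from -0.44 for Sgcd to 0.07 for Sgcb. Their median was -0.12, beside 0.01 over all listed genes.

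**Figure D1:**
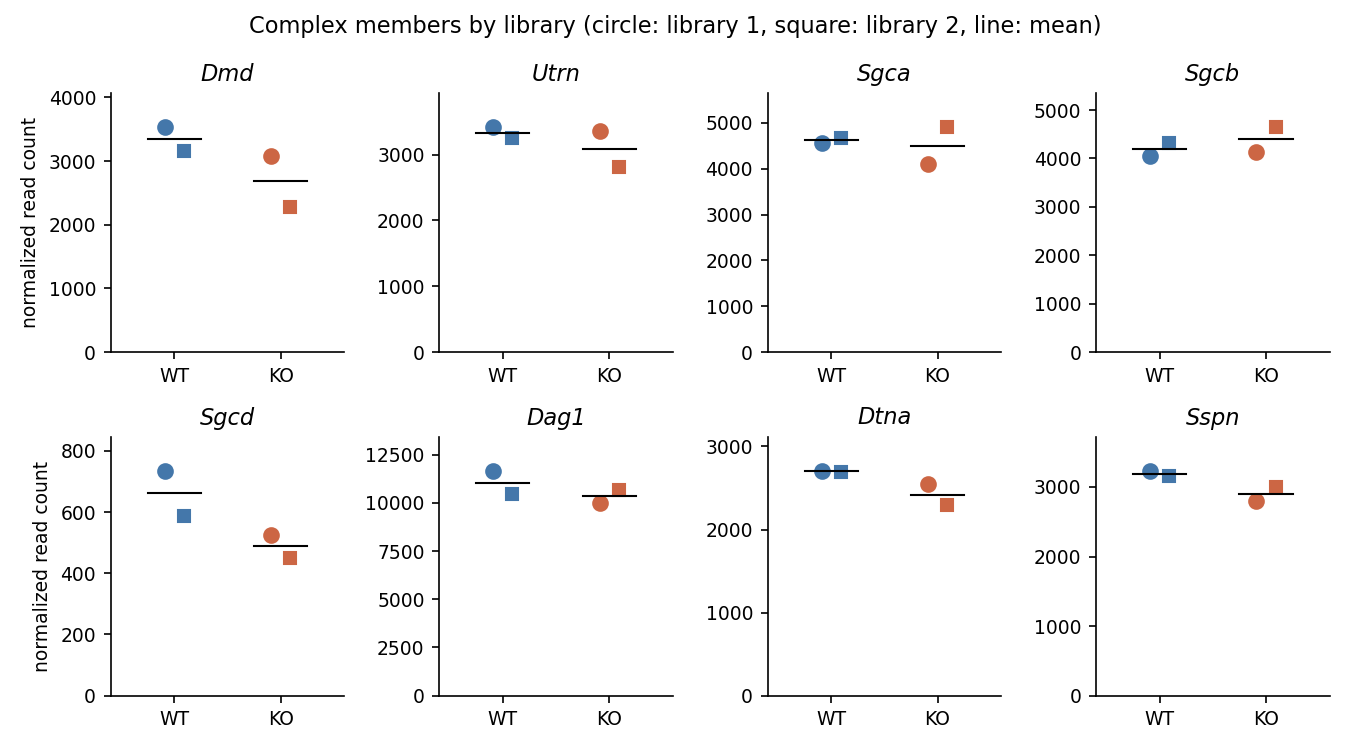
Normalized read counts (vertical axis, starting at 0) of the 8 members in 2 WT and 2 KO libraries, with circles for library 1, squares for library 2 and a line at the mean. The KO points lie below both WT points for Dmd, Sgcd, Dtna and Sspn, and the genotypes overlap for Utrn, Sgca, Sgcb and Dag1.

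Dmd encodes dystrophin itself (chromosome X, 82948870 to 85205050, mm10). Dmd was read at 3531 and 3151 normalized counts in WT against 3076 and 2282 in KO. The KO values were both below the WT values, but KO library 1 lay nearer to WT library 2 than to KO library 2. The WT mean was 3341 ± 268 (SD, n = 2) and the KO mean 2679 ± 562 (SD, n = 2), 1.25-fold lower. In the authors' deposited table the log2 ratio of Dmd is -0.32 and its FDR 0.688. By limma the difference was -0.33 ± 0.16 (SE), with a 95% interval of -0.70 to 0.04 and an adjusted p of 0.299. Without KO library 1 it was -0.55 (limma adjusted p 0.0736), and without KO library 2 it was -0.12 (limma adjusted p 0.698). Dmd was the only member on the X chromosome, where Xist differed as described above. Among 399 X-linked genes with a mean of at least 50, with Dmd but without Xist, the median deposited log2 ratio was 0.04. Of these, 11.03% had a ratio below that of Dmd. Among 11695 such autosomal genes the median was -0.01 and 10.5% had a ratio below that of Dmd.

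Utrn encodes utrophin, the autosomal relative of dystrophin that occupies the neuromuscular junction and can stand in for dystrophin in mice that lack it (chromosome 10, 12382188 to 12861735). It was read at 3415 and 3252 normalized counts in WT against 3365 and 2815 in KO. The genotypes overlapped, since KO library 1 lay between the WT libraries. The Utrn estimate in limma was -0.11 ± 0.12 (SE), with a 95% interval of -0.40 to 0.17 and an adjusted p of 0.655. The FDR in the authors' deposited table was 0.937.

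The ratio of Utrn to Dmd within a library does not depend on how libraries are scaled. In normalized counts it was 0.967 and 1.03 in WT against 1.09 and 1.23 in KO. The KO ratios were both above the WT ratios, with a log2 difference of 0.22 between the group means. The SD of the log2 ratio was 0.07 in WT and 0.12 in KO. With 2 libraries in each group the smallest two-sided p of an exact permutation test is 0.333, so the ratio is given without a test.

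Dmd and Utrn have very long transcripts, of 14.91 and 12.382 kb at their longest coding form in GENCODE M21. Long transcripts as a class had lower values in KO library 2. Over 289 genes of 10 kb or more with a mean of at least 50, KO library 1 had a median log2 value of -0.05 against the WT mean, and KO library 2 one of -0.19. For 2632 genes under 2 kb the medians were -0.06 and 0.08. In the same 2 libraries Dmd was at -0.12 and -0.55 and Utrn at 0.01 and -0.24. Of the 289 long genes, 11.8% were lower than Dmd in KO library 2 and 40.1% were lower than Utrn. The part of transcript length in the Dmd and Utrn values was not tested.

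The gene count of Dmd adds up all its products. Besides the full-length muscle form, the gene makes shorter forms from internal starts, including the widely expressed short form Dp71, so the counts do not show which form they come from. The 250 bases before 2 RefSeq starts on GRCm38.p6 are shown because the count cannot separate their products. Capitals mark E-boxes, the MEF2 site and the CArG box, which are binding motifs of muscle regulators, and the internal window holds none of them.
Dmd, start of the long form, chrX:82948620-82948869, plus strand: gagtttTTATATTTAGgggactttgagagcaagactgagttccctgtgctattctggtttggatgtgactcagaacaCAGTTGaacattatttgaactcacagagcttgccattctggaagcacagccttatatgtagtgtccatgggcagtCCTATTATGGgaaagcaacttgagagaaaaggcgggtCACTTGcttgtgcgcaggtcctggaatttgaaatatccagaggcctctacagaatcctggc
Dmd, internal start, chrX:85048045-85048294, plus strand: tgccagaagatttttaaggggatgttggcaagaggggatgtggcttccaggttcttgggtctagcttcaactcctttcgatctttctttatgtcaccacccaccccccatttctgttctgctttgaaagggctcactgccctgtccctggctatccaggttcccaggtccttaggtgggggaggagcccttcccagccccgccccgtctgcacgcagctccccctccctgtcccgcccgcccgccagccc

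Both strands of each stretch of 250 bases were searched for the E-box CANNTG, the N-box CCGGAA, the GC box GGGCGG, the TATA box TATAAA, the MEF2 site and the CArG box. The long-form window held 2 E-boxes, starting 173 and 61 bases before the start, 1 CArG box at 98 bases and 1 MEF2 site at 244 bases that overlaps a TATA box at 245. The internal window held 3 GC boxes and none of the other motifs. Over 32851 such windows of RefSeq genes, 66.2% held an E-box, 32.7% a GC box, 12.4% a TATA box, 12% an N-box, 2.92% a MEF2 site and 1.47% a CArG box. A match is a description of the letters and not evidence of binding.

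Among the 3 sarcoglycans the deposited difference was largest for Sgcd and smallest for Sgca. Sgcd encodes delta-sarcoglycan, which is made in striated and smooth muscle (chromosome 11, 46978783 to 47379302), and had the lowest p-value of the 8 members. Normalized counts of Sgcd were 735 and 588 in WT against 527 and 449 in KO. The KO pair lay below the WT pair, and the gap between the nearest libraries was smaller than the gap within WT. The WT mean was 662 ± 104 (SD, n = 2) and the KO mean 488 ± 55.2 (SD, n = 2), 1.36-fold lower. Sgcd has a log2 ratio of -0.44, a p-value of 0.0374 and an FDR of 0.391 in the authors' deposited table. Its difference in limma was -0.44 ± 0.14 (SE), with a 95% interval of -0.77 to -0.10 and an adjusted p of 0.169. Leaving out WT library 1 gave -0.27, and leaving out WT library 2 gave -0.60.

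Sgca encodes alpha-sarcoglycan, which is confined to striated muscle (chromosome 11, 94962777 to 94976327). It was read at 4565 and 4676 normalized counts in WT against 4102 and 4902 in KO. The KO libraries lay on either side of the WT pair. Limma gave -0.04 ± 0.13 (SE), with a 95% interval of -0.34 to 0.26, and the FDR in the authors' deposited table was 0.990. Sgcb encodes beta-sarcoglycan, which pairs with delta-sarcoglycan in the core of the subcomplex (chromosome 5, 73632749 to 73647731). Counts of 4047 and 4325 in WT against 4141 and 4645 in KO, all normalized, again overlapped. For Sgcb limma gave 0.07 ± 0.12 (SE), with a 95% interval of -0.21 to 0.35.

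Sgcd counts were a varying fraction of those of its partners. The ratio of Sgcd to Sgcb in normalized counts was 0.182 and 0.136 in WT against 0.127 and 0.0966 in KO. On the log2 scale these ratios were -2.46, -2.88, -2.98 and -3.37, so WT library 2 lay nearer to KO library 1 than to WT library 1. The Sgcd and Sgca windows are shown because these are the sarcoglycans with the largest and the smallest deposited difference, with E-boxes in capitals.
Sgcd, chr11:47379326-47379575, minus strand: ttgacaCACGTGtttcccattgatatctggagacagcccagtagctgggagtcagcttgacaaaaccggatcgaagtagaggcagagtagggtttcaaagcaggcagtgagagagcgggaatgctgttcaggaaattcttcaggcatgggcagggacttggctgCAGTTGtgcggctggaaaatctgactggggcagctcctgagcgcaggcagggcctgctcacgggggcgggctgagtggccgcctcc
Sgca, chr11:94976328-94976577, minus strand: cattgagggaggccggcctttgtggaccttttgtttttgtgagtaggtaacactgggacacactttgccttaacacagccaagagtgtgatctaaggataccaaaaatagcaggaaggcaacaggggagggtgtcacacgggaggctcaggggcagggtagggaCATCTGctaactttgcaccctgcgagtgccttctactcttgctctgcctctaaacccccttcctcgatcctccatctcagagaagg
The Sgcd window held 2 E-boxes, starting 244 and 86 bases before the start, and 1 GC box at 23 bases. The Sgca window held 1 E-box at 86 bases and none of the other motifs.

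Dag1 encodes dystroglycan, the laminin receptor of the complex, whose precursor is cut into an outer alpha and a membrane-spanning beta part (chromosome 9, 108204861 to 108263958). It had the highest normalized counts of the members, at 11672 and 10447 in WT against 10022 and 10656 in KO. KO library 2 lay between the WT libraries. For Dag1 the limma difference was -0.10 ± 0.14 (SE), with a 95% interval of -0.42 to 0.23 and an adjusted p of 0.748.

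Sspn encodes sarcospan, the membrane protein with several spans that binds the sarcoglycans (chromosome 6, 145934147 to 145965225). Sarcospan was read at 3233 and 3153 normalized counts in WT against 2800.3 and 2996 in KO, with both KO values lower. The WT mean was 3193 ± 56.8 (SD, n = 2) and the KO mean 2898 ± 138 (SD, n = 2), 1.10-fold lower. For Sspn the limma estimate was -0.14 ± 0.10 (SE), with a 95% interval of -0.38 to 0.10 and an adjusted p of 0.504.

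Dtna encodes alpha-dystrobrevin, the cytoplasmic relative of dystrophin that carries syntrophins and helps to keep acetylcholine receptors in place (chromosome 18, 23310020 to 23659719). Dtna was read at 2708 and 2693 normalized counts in WT against 2547 and 2294 in KO. The KO pair was lower than the closely matched WT pair. The WT mean was 2700.1 ± 10.8 (SD, n = 2) and the KO mean 2421 ± 179 (SD, n = 2), 1.12-fold lower. For Dtna the limma estimate was -0.16 ± 0.10 (SE), with a 95% interval of -0.40 to 0.08 and an adjusted p of 0.447. Exons of Dtna and Sspn overlap annotated antisense genes by 90 and 69 bases, and whether the counting used strand was not given in the sources used here.

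**Figure D2:**
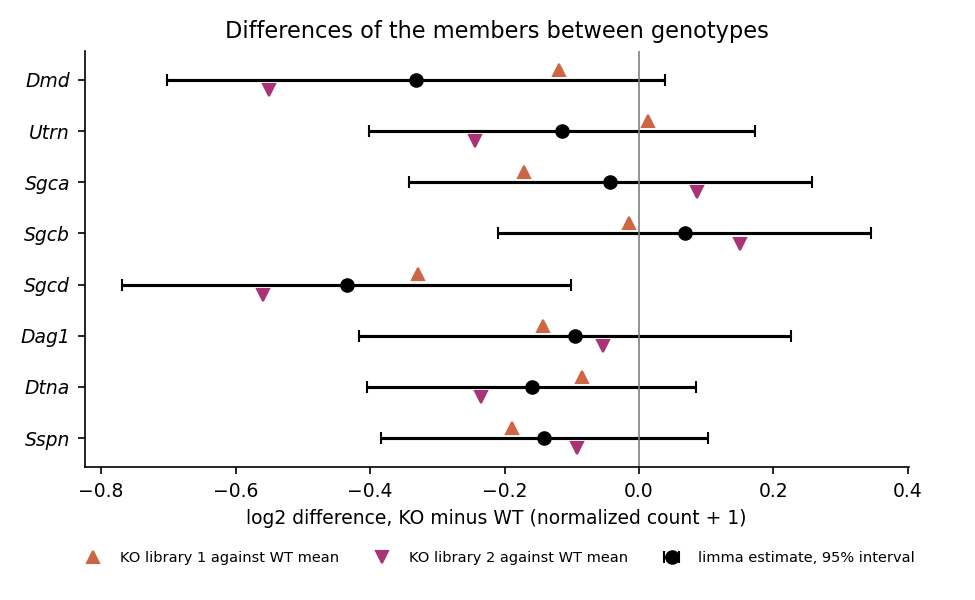
Difference between genotypes for each member on the log2 scale of normalized count plus 1 (horizontal axis, KO minus WT). Black points and bars are limma estimates with 95% intervals, and triangles are each KO library against the WT mean; the interval of Sgcd alone lies wholly below 0, before adjustment over all genes.

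The KO pair lay wholly below the WT pair for 4 of the 8 members, Dmd, Sgcd, Dtna and Sspn, against 25.7% of all listed genes. It lay wholly above for 0 members, against 25.8% of all listed genes. The 8 genes share the same 4 libraries, so the count describes these libraries and is not a test. Against the WT mean the median log2 value of the members was -0.13 in the first KO library and -0.16 in the second. The deposited ratio was below 0 for 7 of 8 members, the exception being Sgcb, and in limma 6 were below 0 with total-count scaling, where Sgca turned, and 5 with quantile normalization, where Sgca and Dag1 turned. Sgcd was the lowest member in each KO library, at -0.33 and -0.56, followed by Sspn at -0.19 in the first and Dmd at -0.55 in the second. The intervals above still include differences of up to 0.70 on the log2 scale for Dmd and 0.77 for Sgcd in the direction of lower KO values.

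Levels of different genes were compared per kilobase of the longest coding transcript in GENCODE M21, which may differ from the annotation the authors used. In WT the order was Sgca at 2680 ± 45.5 normalized counts per kilobase (SD, n = 2), Dag1 at 1953 ± 153, Sgcb at 1106 ± 51.9, Sspn at 708 ± 12.6 and Dtna at 429 ± 1.71. Sgcd at 270.0 ± 42.4, Utrn at 269 ± 9.31 and Dmd at 224 ± 18.01 followed, and Sgcd and Utrn did not differ beyond their spread. In KO the same first 5 genes led, from 2612 ± 328 for Sgca to 385 ± 28.4 for Dtna. Utrn at 249.6 ± 31.4 then came before Sgcd at 199 ± 22.5 and Dmd at 180 ± 37.7, and these last 2 lay within their spread. Measured over all annotated exons the first 4 places stayed the same in WT and the last was taken by Sgcd, whose annotated exons sum to 8.257 kb against 2.45 kb for its longest coding transcript. Transcript levels per kilobase do not give the proportions of the proteins.

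**Figure D3:**
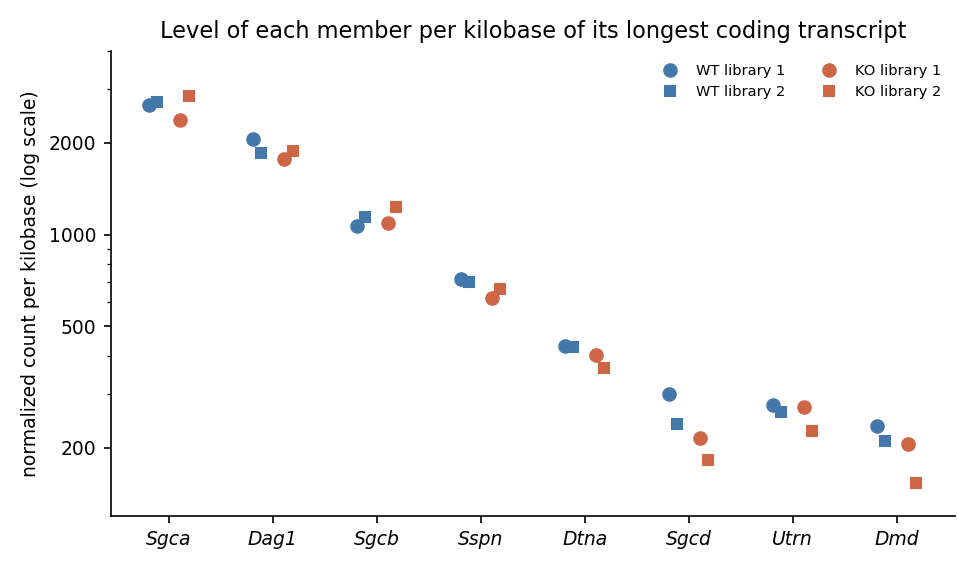
Normalized count per kilobase of the longest coding transcript (vertical axis, log scale) of each member in 2 WT (blue) and 2 KO (orange) libraries. Sgca is highest at 2380 to 2844 and Dmd lowest at 153 to 237, and the order of the first 5 genes is the same in both genotypes.

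Beyond the 8 members, 11 of 13 listed subunits and partners of the complex were measured, and 0 passed the authors' FDR in either direction. Their median deposited log2 ratio was -0.12. At an unadjusted p under 0.05 by the authors' deposited table there were 5 of the 11, against 11.1% of all listed genes. Sgcz, zeta-sarcoglycan, and Sntg1, gamma1-syntrophin, had no row. Limma called 0 of the 11 at its adjusted threshold.

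Nos1, neuronal nitric oxide synthase, which docks at the membrane through the dystrophin complex, had the largest ratio of this list. Nos1 was read at 1284 and 836 normalized counts in WT against 623 and 249.6 in KO. The KO pair was lower, and the 2 libraries within each genotype were far apart. Nos1 has a log2 ratio of -1.28 in the authors' deposited table, with a p-value of 0.0302 and an FDR of 0.353, and limma gave -1.39 ± 0.57 (SE) with a 95% interval of -3.13 to 0.35.

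Sntb2, beta2-syntrophin, which is found at the neuromuscular junction, was at 378 and 360.5 normalized counts in WT against 576 and 481 in KO. Its KO values were higher, with an FDR of 0.147 in the authors' deposited table and an adjusted p of 0.0962 in limma. Sntb2 lies on chromosome 8 (106935750 to 107014192), as does Prmt7, and the part of this location in its values was not tested. Drp2, a dystrophin relative that joins dystroglycan and periaxin in myelinating Schwann cells, had 585 and 583 in WT against 1171 and 770 in KO. Like Dmd, Drp2 is on the X chromosome. Sgce, epsilon-sarcoglycan, a widely expressed relative of Sgca, had 442 and 476 in WT against 639 and 540 in KO. The KO pair lay above the WT pair for these 3 genes, and none passed the FDR (0.433 for Drp2 and 0.429 for Sgce). Over the 11 measured it lay above for 3 and below for 4, against 25.8% and 25.7% of all listed genes.

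Markers of Schwann cells were higher in the same libraries as Drp2. For all 8 measured, Mbp and Pmp22 among them, the KO pair lay above the WT pair, against 25.8% of all listed genes. None passed the FDR, and their summed normalized counts were 8412 and 8845 in WT against 24524 and 11893 in KO. Fibroblast and progenitor markers summed to 213787 and 188051 in WT against 358971 and 286625 in KO. Those sums were mostly Col1a1, Col1a2 and Col3a1. By the authors' FDR 2 of 8, Col1a2 and Col3a1, rose, against 2.71% of all listed genes in either direction. Limma called 0 of the 8. The KO pair lay above the WT pair for 6 of the 8 and below it for 1, Ly6a. Adipocyte markers (0 of 7 called) summed to 23023 in KO library 1 and 15742 to 17662 in the others. Fabp4 made up most of each sum, at 14225 to 16581 normalized counts. Set against the WT mean, the median log2 value of the 7 markers was 1.74 for KO library 1. The same median for KO library 2 was -0.59. In such bulk RNA more cells of a type and more RNA per cell cannot be told apart. The part of these cells in the values of Drp2, Sntb2 and Sgce was not tested.

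The other partners described here had smaller log2 ratios than Sntb2. Cav3, the muscle caveolin, had 1868 and 1928 normalized counts in WT against 1493 and 1780 in KO, and Sntb1, beta1-syntrophin, had 190.5 and 156 against 148 and 112. The KO values were lower for these 2 genes, with FDRs of 0.689 and 0.661 in the authors' deposited table. Dtnb, beta-dystrobrevin, had 53.9 and 61.7 in WT against 56.3 and 76.3 in KO. Sntg2, gamma2-syntrophin, and Nos1ap, an adaptor of Nos1, did not exceed 18.1 normalized counts in any library.

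**Figure D4:**
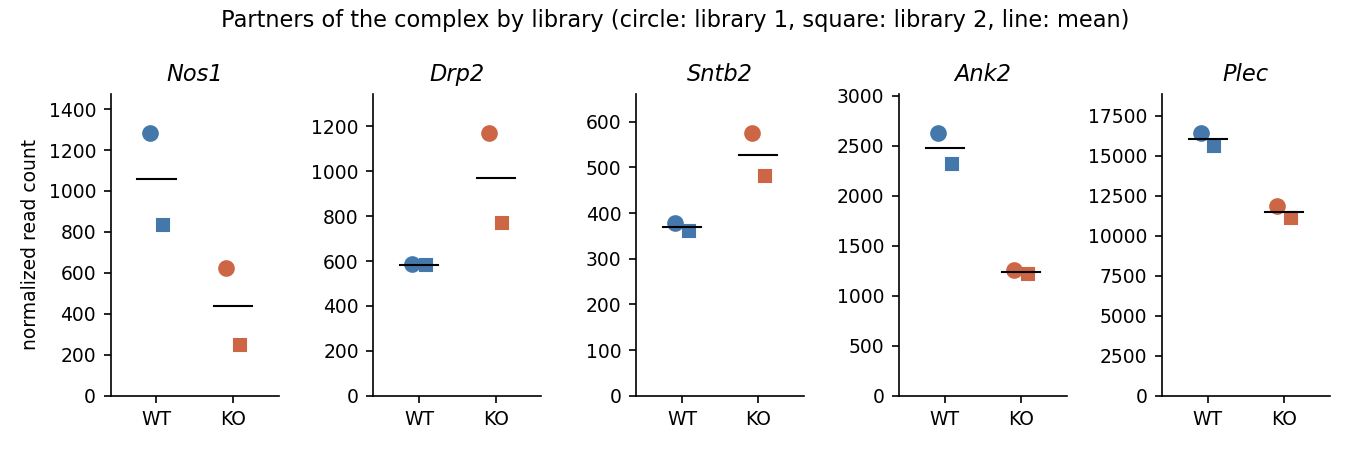
Normalized read counts (vertical axes, starting at 0) of 5 partners of the complex in 2 WT and 2 KO libraries, with circles for library 1, squares for library 2 and a line at the mean. Nos1, Ank2 and Plec are lower and Drp2 and Sntb2 higher in both KO libraries, and only Ank2 and Plec pass the authors' FDR.

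The sugars of alpha-dystroglycan that bind laminin are built by a chain of enzymes. All 17 listed genes of this chain were measured, and 0 passed the authors' FDR. An unadjusted p under 0.05 by the authors' deposited table was reached by 0, against 11.1% of all listed genes. Their median log2 ratio was -0.06. Large, the enzyme that adds the laminin-binding repeat, had the lowest p-value in the authors' deposited table, 0.0551, with 932 and 703 normalized counts in WT against 620.2 and 565 in KO. Ispd, which makes the ribitol donor, had 123 and 108 in WT against 156 and 146 in KO (FDR 0.728 in the authors' deposited table). For both genes the genotypes did not overlap. Over the 17 the KO pair lay wholly below the WT pair for 4 and wholly above for 1, against 25.7% and 25.8% of all listed genes.

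Of 16 laminins and other basement membrane and matrix partners, 0 passed the authors' FDR, with a median log2 ratio of 0.09. This median changed sign with the library left out, from -0.09 without KO library 1 and -0.06 without WT library 2 to 0.24 without WT library 1 or KO library 2. Lama5 and Lamb2, the laminin alpha5 and beta2 chains, had the lowest p-values, both with lower KO values. Lama5 had 2216 and 2118 normalized counts in WT against 1705 and 1577 in KO, with an FDR of 0.173 in the authors' deposited table. Lamb2 had 6795 and 6337 in WT against 5740.4 and 4779 in KO, with an FDR of 0.332 in the authors' deposited table. Lama2, the main laminin alpha chain around muscle fibres, overlapped between genotypes, at 4574 and 3700 in WT against 5293 and 3512 in KO; it was chosen for mention after its values were seen.

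Ank2 and Plec, partners of the complex at costameres, did pass. Costameres are the rib-like bands where the complex, integrins and the cytoskeleton meet. Of 19 measured costamere genes, 2 fell and 0 rose past the authors' FDR, against 2.71% of all listed genes in either direction. The other 17 did not pass. The KO pair lay below the WT pair for 10 of the 19, against 25.7% of all listed genes, and above for 5, against 25.8%. The list's median was -0.22. Ank2, ankyrin-B, which in mice brings dystrophin and dystroglycan to costameres, fell from 2629 and 2320.3 normalized counts in WT to 1253 and 1222 in KO. Its KO libraries were close together and far below both WT libraries. The log2 ratio in the authors' deposited table was -0.9998 with an FDR of 4.95e-08, and limma gave -0.996 ± 0.104 (SE) with an adjusted p of 0.0192. Plec, plectin, which ties desmin filaments to the complex, fell from 16421 and 15618 to 11841 and 11073, with an FDR of 0.0263 in the authors' deposited table. In limma its adjusted p was 0.128, above the threshold.

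Of 11 membrane repair genes, 1 rose and 0 fell past the authors' FDR, against 2.71% of all listed genes in either direction. The other 10 did not pass. The KO pair lay above the WT pair for 5 of the 11, against 25.8% of all listed genes, and below for 4, against 25.7%. Anxa2, annexin A2, a calcium-dependent membrane-binding protein, rose from 3194 and 2739 normalized counts in WT to 4575 and 4249 in KO. Its FDR was 0.00641 in the authors' deposited table, and its limma adjusted p was 0.0731. Annexin A2 is also made by fibroblasts, whose markers are described above, and their part in this value was not tested.

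**Figure D5:**
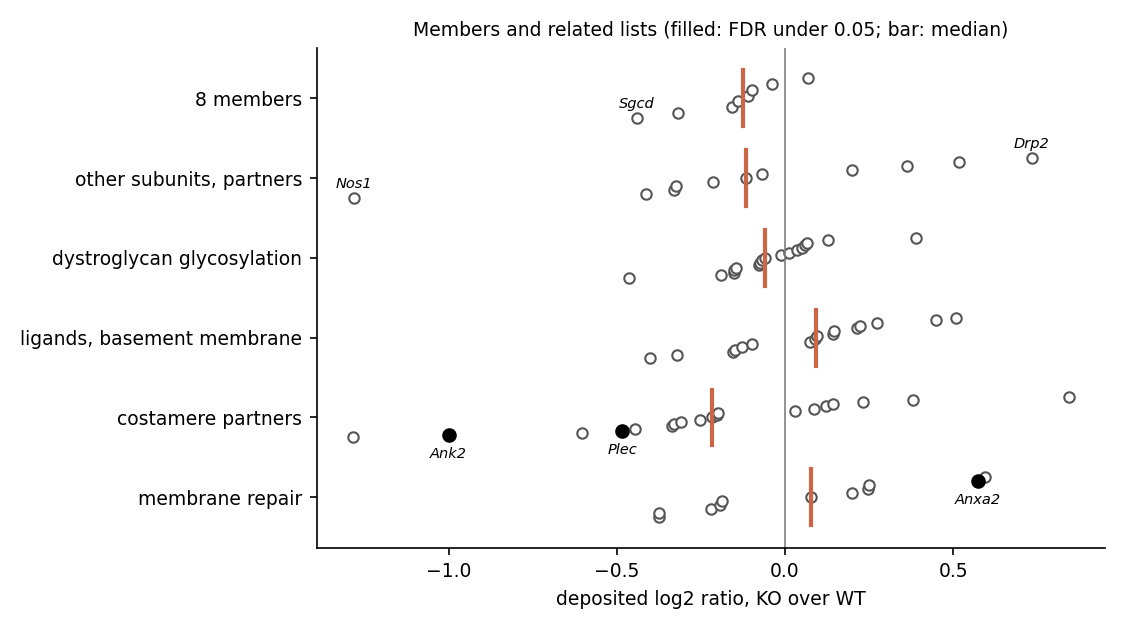
Deposited log2 ratio, KO over WT (horizontal axis), of the 8 members and 5 lists of related genes, 1 point per gene. Filled points have an authors' FDR under 0.05 and bars are list medians; the members' median is -0.12, and the filled points are Ank2, Plec and Anxa2.

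The products of Utrn and Dtna are found at the neuromuscular junction, so its markers are given beside them. Of 11 junction markers, 2 rose and 0 fell past the authors' FDR, against 2.71% of all listed genes in either direction. They were Chrne, the adult receptor subunit, from 321 and 307 normalized counts to 559 and 505, and Colq, which anchors acetylcholinesterase, from 203 and 186 to 357 and 391. Limma also called 2 of the 11, against 0.889% of the genes it tested. The KO pair lay above the WT pair for 8 of the 11, against 25.8% of all listed genes. It lay below for 2, Lrp4 and Rapsn, against 25.7%. Utrn and Dtna had deposited log2 ratios of -0.11 and -0.16, beside a median of 0.41 for the junction list. Utrn is also made in endothelium, where 2 of 8 markers fell past the authors' FDR, against 2.71% of all listed genes. They were Kdr, from 7757 and 6792 to 5150 and 4779, and Flt1, from 3034 and 3311 to 2375 and 1867. Limma called 0 of the 8, and the deposited ratio was below 0 for 7 of them. The part of the junction and of endothelium in the Utrn and Dtna values was not tested. Of 6 smooth muscle and pericyte markers, 7 macrophage markers and 9 markers of myogenic or regenerating fibres, 0 passed, with list medians of -0.21, 0.17 and 0.25. Myh8, a myosin of newborn and regenerating fibres, had 901 and 295 normalized counts in WT against 165 and 114 in KO (FDR 0.605 in the authors' deposited table), and was chosen for mention after its values were seen. Among these 9 markers the KO pair lay wholly below the WT pair for Myh8 alone, against 25.7% of all listed genes. It lay wholly above for 5 of the 9, against 25.8%. Of 10 fibre markers Myh4 rose, and Myh1 and Mb fell, past the authors' FDR, against 2.71% of all listed genes in either direction. Limma called 1 of the 10, Mb, with an adjusted p of 0.0192.

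The genes whose pattern was nearest to that of Sgcd were sought among 12100 genes with a mean of at least 50, by Euclidean distance between centred log2 values over the 4 libraries. They were P2ry2, at a distance of 0.02, Flii, at 0.04, and Snx22, at 0.04. P2ry2 had 2488 and 2003 normalized counts in WT against 1763 and 1517 in KO. Over 4 libraries the likeness is a description only.

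The authors also deposited an Ingenuity table of upstream regulators, made from genes past a log ratio threshold, in which 2 of the members appear as regulators. DMD was listed with 11 target genes, among them NOS1, CKMT2, MYH1 and PVALB, with a p-value of overlap of 0.00805 in the authors' deposited table. DAG1 was listed in the authors' deposited table with 2, Mbp and NOS1, with a p-value of overlap of 0.0299. Both rows give no activation score. Of the 11 targets listed for DMD, Ckmt2, Gatm and Myh1 had an FDR under 0.05 in the authors' deposited gene table, while Nos1 had 0.353 and Pvalb 0.187. The threshold was set on the ratio alone, so these lists include genes such as Hspb6, at 65599 and 28848 normalized counts in the WT libraries, whose WT libraries were far apart.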

How the data were processed

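Messenger RNA of tibialis anterior muscle was sequenced from 3 WT and 3 KO mice, per the labels. For each of 14617 genes the authors deposited 2 group means, a signal in normalized read counts. Beside them the authors gave the log2 of their ratio, with p-value and FDR from DESeq as the table is named; 1 line of the table was not analysed here. The authors also deposited tables from Ingenuity. Coordinates are in mm10, per the submitters' processing notes, counted from 1. The aligner, counting program and annotation were not given in the sources used here.

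Each mean equalled whole multiples of 2 steps, 1 per library, to within a tolerance of 1e-13 of the value, with 1 solution for all 14617 genes in each genotype; 1 step explained 4.67% and 5% of the 300 lowest values. The recovered factors, 1.00269 and 0.940389 in WT and 1.10132 and 0.969712 in KO, lay close to those of a median-of-ratios calculation on the counts, 1.00268, 0.940378, 1.10132 and 0.969715. Library 1 of a genotype is the one with the larger factor. Libraries of 1 genotype differed beyond counting noise (chi-square per degree of freedom of 29.9 and 27.3). Y-linked genes were read in 1 KO library alone, so the KO libraries are not from 1 mouse. For WT the labels tie no library to a mouse, and the spread there may be technical.

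The authors' FDR under 0.05 was the main call. limma 3.58.1 in R 4.3.3 was fitted to log2 of the normalized count plus 1 (mean of 10 or more, robust empirical Bayes with a trend, two-sided, Benjamini-Hochberg over 14053 genes, 2 residual degrees of freedom); the pseudocount understates the change of low genes. Both methods were tested on simulated data, in which the spread between libraries was set and not taken from these data. Lengths and overlaps came from GENCODE M21, and start windows from RefSeq on GRCm38.p6 (used for 3 members). A length was found for 94.0% of genes averaging 50 or more. All members, the measured other subunits (some not reported here), each related list's genes past the FDR, or else its 2 lowest p-values, and marker genes past the FDR are named. Patterns like the lead member's are the 3 nearest by distance. The members and lists were chosen with earlier results of these data known.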

Additional observations from a re-analysis of the deposited data

How the results depend on the processing

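No member passed either test under any alternative run, and the lowest adjusted p of a member in limma was 0.0736, for Dmd with KO library 1 left out. Across 12 alternatives the limma log2 difference of Dmd ran from -0.55 to -0.12 and that of Sgcd from -0.60 to -0.27. Sgca turned to 0.0067 with total counts and 0.0683 with quantile normalization, and ran from -0.171 to 0.0856 with 1 library left out. Dag1 turned to 0.0161 with quantile normalization. With 1 library left out Utrn ran from -0.243 to 0.0141, above 0 without KO library 2, and Sgcb from -0.0146 to 0.151, below 0 without KO library 2. The members' median log2 ratio was -0.0741 with total counts, -0.0829 with upper quartile scaling and -0.0325 with quantile normalization, the last chosen after seeing the data, and -0.16 to -0.10 with 1 library left out. The Utrn to Dmd log2 difference ran from 0.13 to 0.30 with 1 library left out. The median of the other subunits was -0.03 without WT library 2 and -0.04 without KO library 2, and that of the costamere list -0.11 without WT library 1. With 1 library left out the ligand median ran from -0.09 to 0.24, the glycosylation median from -0.07 to -0.01 and the repair median from 0.01 to 0.15. The cause was not tested. The counts of called genes in the 5 related lists were the same at an FDR under 0.1. Fits that leave a lone library in a genotype assume that it varies like the other genotype's pair. No paired analysis was possible because the recovered libraries carry no mouse numbers.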

Other observations

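Some abundant transcripts differed widely between the 2 WT libraries. Of 3938 genes averaging 1000 normalized counts or more, 17 differed at least 2-fold between the WT libraries and 9 between the KO libraries. WT library 1 was the higher for 14 of the 17 and WT library 2 for 3, Lars2, Cish and B230312C02Rik. The genes described next were chosen after their values were seen. Actn2, the alpha-actinin of Z-discs, had 60091 and 29318 normalized counts in WT against 20634 and 16057 in KO, and Flnc, filamin C, which binds sarcoglycans, had 26463 and 12876 in WT against 16008 and 9899 in KO. Csrp3, a muscle LIM protein, had 20115 and 1922 in WT against 945 and 538 in KO, and Ankrd2 had 9483 and 1929 in WT against 1051 and 706 in KO. None of these 4 passed the authors' FDR, which was 0.541 for Actn2 and 0.725 for Csrp3. Among the 8 members of the complex, WT library 1 was the higher for 6 and WT library 2 for 2, Sgca and Sgcb.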
